A study of Mus musculus with 12 samples.

Results

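Open chromatin that lies away from gene starts and was found in neuronal nuclei, but not in microglia or in Olig2+ nuclei, was described across wild-type and SgshKO mouse forebrain. The regions are the ATAC-seq peaks of NeuN+ nuclei that the deposited table annotates as intronic or intergenic, that lie more than 1000 bp from the nearest transcription start site (TSS), and that share not even 1 bp with a peak of the microglia or Olig2+ table. They number 53765 of the 107627 NeuN+ peaks (49.955%), and are called neuron-only distal peaks below. Of these, 32819 are intronic and 20946 intergenic.

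ATAC-seq uses a transposase that inserts sequencing adapters into open DNA, so that the reads piled up over a region measure how accessible it is. The 12 libraries came from the forebrain of C57BL/6 mice at 4 months of age, wild-type (WT) or SgshKO, with 2 libraries for each genotype and sort. SgshKO is, by its label, a knockout of Sgsh, which encodes a lysosomal enzyme that removes sulfate during the breakdown of heparan sulfate. Nuclei were lightly fixed in formaldehyde and sorted as PU.1-, OLIG2- and NEUN+ for neurons, or PU.1-, OLIG2+ and NEUN- for the oligodendrocyte lineage, while microglia were sorted as whole cells. The labels do not give the type of Sgsh allele, the sex of the mice, or whether libraries of a group came from separate animals, so p-values measure only the spread between these libraries. With 2 libraries against 2, an exact permutation test cannot go below p = 0.333.

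Distal accessible regions hold enhancers and other regulatory DNA, bound by transcription factors, that act on promoters over a distance. Their accessibility differs far more between cell types than that of promoters, and in neurons many of them are bound by basic helix-loop-helix, MEF2 and activity-induced AP-1 factors. A peak in bulk nuclei averages over all neurons of the sort, so fewer nuclei with an open region and a less open region in each nucleus cannot be told apart.

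The sequences shown first are those of the neuron-only distal peaks that overlap a RefSeq window around a gene start, since only there was sequence at hand. These windows span 300 bases around the start of a RefSeq gene of GRCm38.p6, the assembly of which mm10 is the browser name. Of the neuron-only distal peaks, 368 (0.684%) overlap such a window; in 30 of the 368 the window's gene is also the nearest gene in the deposited table. Among peaks with at least 150 bases inside the 250 bases upstream of the start, 20 were called higher and 12 lower in SgshKO, and the 3 with the highest mean tags in each direction, at most 1 per nearest gene, are printed. The lines give the part of these 250 upstream bases that the peak covers, 5' to 3' on the strand of the window's gene. They are in lower case, with CpG dinucleotides in capitals. The first set was higher in SgshKO.
Gm32011, chr15:31091970-31092219, plus strand: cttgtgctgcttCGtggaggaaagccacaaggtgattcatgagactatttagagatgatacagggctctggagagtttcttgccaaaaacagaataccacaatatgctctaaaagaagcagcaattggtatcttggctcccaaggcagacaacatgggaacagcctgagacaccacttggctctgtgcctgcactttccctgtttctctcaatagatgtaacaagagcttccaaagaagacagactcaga
Gm30092, chr4:17636205-17636441, minus strand: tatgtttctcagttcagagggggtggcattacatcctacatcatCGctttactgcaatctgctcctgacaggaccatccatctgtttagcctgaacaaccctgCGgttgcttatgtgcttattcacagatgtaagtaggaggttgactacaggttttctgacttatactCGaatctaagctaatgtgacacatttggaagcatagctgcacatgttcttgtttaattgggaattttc
Gm41340, chr15:66353978-66354150, plus strand: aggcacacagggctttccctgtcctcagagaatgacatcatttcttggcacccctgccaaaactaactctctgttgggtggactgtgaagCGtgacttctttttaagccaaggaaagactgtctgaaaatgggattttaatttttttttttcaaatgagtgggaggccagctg
The second set was lower in SgshKO.
1700014D04Rik, chr13:59746872-59747067, minus strand: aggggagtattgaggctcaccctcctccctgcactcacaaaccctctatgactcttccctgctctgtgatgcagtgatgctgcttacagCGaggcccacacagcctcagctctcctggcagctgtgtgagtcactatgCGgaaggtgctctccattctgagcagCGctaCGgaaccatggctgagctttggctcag
Zdhhc22, chr12:86990579-86990745, minus strand: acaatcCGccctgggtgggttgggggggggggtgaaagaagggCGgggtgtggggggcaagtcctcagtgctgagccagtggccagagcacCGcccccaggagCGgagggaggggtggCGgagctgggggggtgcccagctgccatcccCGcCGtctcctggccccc
Gm14636, chrX:19237851-19238025, minus strand: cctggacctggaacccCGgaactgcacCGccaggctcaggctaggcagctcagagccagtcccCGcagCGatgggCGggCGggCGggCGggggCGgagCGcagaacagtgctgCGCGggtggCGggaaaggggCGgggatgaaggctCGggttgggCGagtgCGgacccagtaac

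The sequences differ in base composition between the sets. The G+C content of the printed stretches was 45.6%, 42.2% and 44.5% in the set that was higher and 57.1%, 73.7% and 72.6% in the set that was lower, with 1, 3 and 1 CpG against 4, 7 and 17. The Gm32011 peak had 24.4 and 19.8 normalized tags in the WT libraries and 46.8 and 56.5 in the SgshKO libraries (log2 change 1.19 ± 0.20 SE, limma adjusted p = 0.000331). The Gm41340 peak, whose nearest gene is the potassium channel gene Kcnq3, had 12.5 and 10.2 against 41.2 and 52.7 tags (1.96 ± 0.23, adjusted p = 1.27e-05). The 1700014D04Rik peak went the other way, from 67.4 and 51.4 to 26.5 and 33.0 tags (-0.97 ± 0.19, adjusted p = 0.00126). The Gm14636 peak on chromosome X had 36.8 and 32.2 against 18.9 and 21.6 tags (-0.74 ± 0.21, adjusted p = 0.0146). In each of the 4 the genotypes did not overlap, which holds for 13729 of the 13732 neuron-only distal peaks called and adds nothing to the call. Tags are counts scaled by the authors to a library total of 10000000, changes are on the log2(tags + 1) scale, and a peak is called at an adjusted p under 0.05 over all 107627 NeuN+ peaks.

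Over all 368 peaks in such windows, the median G+C content of the window was 42.2% for the 50 called higher, 51.3% for the 270 not called, and 55.0% for the 48 called lower. In the 93 peaks with the lowest G+C content (31.7% to 45.7%) 33 peaks were called higher and 3 lower, with a median change of 0.44. In the 91 with the highest (55.0% to 88.0%) 1 was called higher and 24 lower, with a median of -0.50. The groups between had medians of 0.16 (13 higher, 10 lower) and -0.07 (3 higher, 11 lower). Across the 368 peaks Pearson's r between window G+C content and log2 change was -0.487 and Spearman's rho -0.471. This is a description across peaks of the same 4 libraries, and peaks are not replicates. Depth differs between the genotypes, as given below, and the base composition of the libraries was not measured. The part of either in this was not tested. These 368 peaks lie near annotated transcripts and need not stand for the other neuron-only distal peaks, whose sequence was not analysed here.

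**Figure D1:**
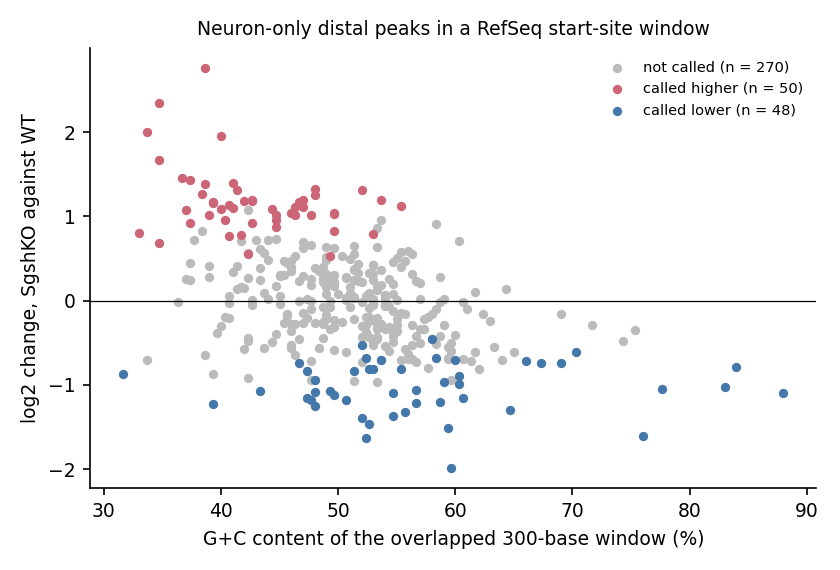
G+C content of the 300-base RefSeq window (x axis, %) against the log2 change of the overlapping neuron-only distal peak, SgshKO against WT (y axis), 1 point per peak. The 50 peaks called higher sit to the left of the 48 called lower, with median G+C contents of 42.2% and 55.0%.

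Motifs were searched in these windows on both strands. The 368 peaks fall in 360 different windows, with a median G+C content per peak of 50.7%, against 52.7% over all 32851 RefSeq windows. The neuronal basic helix-loop-helix letters CAGATGG were found in 50 of the 360 windows (13.9%) and in 5.30% of all windows. The AP-1 letters TGANTCA, bound by FOS and JUN proteins, were in 11.1% against 7.81%, and the MEF2 motif in 4.72% against 3.19%. The other motifs were rarer: the RFX letters GTTGCCATG were in 1.67% against 0.773%, the CRE letters TGACGTCA in 1.39% against 1.79%, and the CTCF motif in 0.556% against 0.557%. The letters GAGGAAGT of PU.1, a factor of microglia and not of neurons, were in 1.94% against 3.20%, and the SOX letters AACAATGG in 0.833% against 1.05%. The EGR letters GCGTGGGCG were in 0 of the 360 windows and in 0.612% of all windows. A match is not a binding site, and no test was made of these shares. All RefSeq windows were taken whether or not they hold a NeuN+ peak, and windows under shared distal peaks were not compared. Whole windows were searched, also where the peak covers only a small part.

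By position, the neuron-only distal peaks were narrow and far from gene starts. Their median width was 248 bp (201 to 1536), and their median distance to the TSS of the nearest gene was 33654 bp, with quartiles of 11992 and 85489 bp. The 53765 peaks had 12332 nearest genes, of which 4140 had 1 peak, 1337 had at least 10 and 101 had at least 30. Of the intronic peaks, 67.1% lay in an intron of their nearest gene. Peaks just inside the distance threshold (up to 1500 bp, 1201 peaks) had a median change of -0.16, and NeuN+ peaks just outside it (over 500 bp, 874 peaks) one of -0.27. The authors' Peak Score was 1000, its highest value, in 43.2% of the neuron-only distal peaks.

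Some genes had many neuron-only distal peaks. Rbfox3, which encodes the NeuN protein used for the sort, was the nearest gene of 135, of which 131 lie in its introns (chromosome 11, 118621661 to 118940831). It was followed by Celf4 with 131, a regulator of neuronal RNA, and Phactr1 with 97, a regulator of actin. Umps, a gene of pyrimidine synthesis, had 84, but all 84 lie in introns of its neighbour Kalrn, which encodes a guanine nucleotide exchange factor of dendritic spines and was itself the nearest gene of another 79. Celf2 had 82, the plasma membrane calcium pump gene Atp2b2 78, the kinase gene Dclk1 77, Lingo1 76 and the adhesion gene Ntm 73. Counted by the gene whose intron holds the peak, Rbfox3 had 185, Kalrn 153 and Gabbr2, a subunit of the GABA-B receptor, 112.

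Marker genes fixed for 6 cell types bear on the label of the sort. All 10 neuron markers had a NeuN+ peak within 1000 bp of a TSS, against 1 of 10 for microglia, 1 of 10 for endothelial cells, 5 of 10 for oligodendrocytes, 4 of 10 for astrocytes and 6 of 10 for oligodendrocyte precursors. Among the defining markers with no such peak were Cx3cr1, P2ry12 and Csf1r of microglia, Mog, Mag and Sox10 of oligodendrocytes, Gfap and Aqp4 of astrocytes, and Cldn5 of endothelium. Summed over the start-site peaks, the neuron list had 1231 and 1178 tags in WT against 665 and 703 in SgshKO, and the oligodendrocyte list 196 and 174 in WT against 92.1 and 96.5. The microglia list had 54.4 and 48.0 against 34.2 and 32.4, the astrocyte list 242 and 225 against 183 and 183, the precursor list 123 and 124 against 61.4 and 71.7, and the endothelial list 10.2 and 10.7 against 6.28 and 7.62. The start-site sums of all 6 lists were lower in both SgshKO libraries with the deposited totals. The neuron-only distal peaks nearest these markers numbered 220 for neurons, 32 for endothelium, 28 for astrocytes, 26 for oligodendrocytes, 11 for precursors and 8 for microglia. Their summed tags were lower in SgshKO for the neuron list (3068 and 3052 against 2991 and 2942). They were higher in both SgshKO libraries for the microglia list (98.0 and 101 against 114 and 129), the endothelial list (445 and 459 against 526 and 513), the astrocyte list (373 and 412 against 443 and 431) and the precursor list (169 and 173 against 179 and 174). They overlapped between genotypes for the oligodendrocyte list (390 and 406 against 393 and 406). All these sums use the deposited totals and were not recomputed with in-peak scaling. That scaling raised the median log2 change of all NeuN+ peaks by 0.28, as given below. Small differences in the sums, such as that of the neuron list, may therefore turn with the scaling. The part of these other cell types in the results below was not tested.

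The neuron-only distal peaks held a larger share of the in-peak tags in both SgshKO libraries than in both WT libraries. They held 25.7% and 26.6% of the in-peak tags of the WT libraries (95% Wilson intervals 25.70% to 25.78% and 26.60% to 26.68%, counting error only) and 35.3% and 35.4% in the SgshKO libraries (35.20% to 35.31% and 35.35% to 35.45%). The means were 26.2% ± 0.64 (SD, n = 2) and 35.3% ± 0.11, a difference of 9.14 percentage points (exact permutation test, two-sided, p = 0.333, the smallest possible). Of all tags of a library, the share in these peaks was 6.87% and 6.91% in WT and 7.59% and 7.51% in the SgshKO libraries. The groups did not overlap in either measure, and the second difference is small, at 0.665 percentage points.

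The other classes of NeuN+ peaks held smaller shares in both SgshKO libraries. NeuN+ distal peaks that overlap a microglia or Olig2+ peak, called shared distal peaks below (21121), held 4.54% and 4.43% of all tags in WT and 3.57% and 3.49% in the SgshKO libraries. Peaks within 1000 bp of a TSS held 13.8% and 13.1% against 9.26% and 9.11%. The share of tags inside any peak was 26.3% ± 0.55 in WT and 21.4% ± 0.22 in SgshKO (exact permutation p = 0.333), and library totals came to 17653808 and 17706971 in WT against 14326703 and 15750361 in SgshKO. The median neuron-only distal peak held 18 reads in each WT library and 16 and 17 in the SgshKO libraries. In-peak share and depth thus move with genotype, and their part in the results was not tested.

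**Figure D2:**
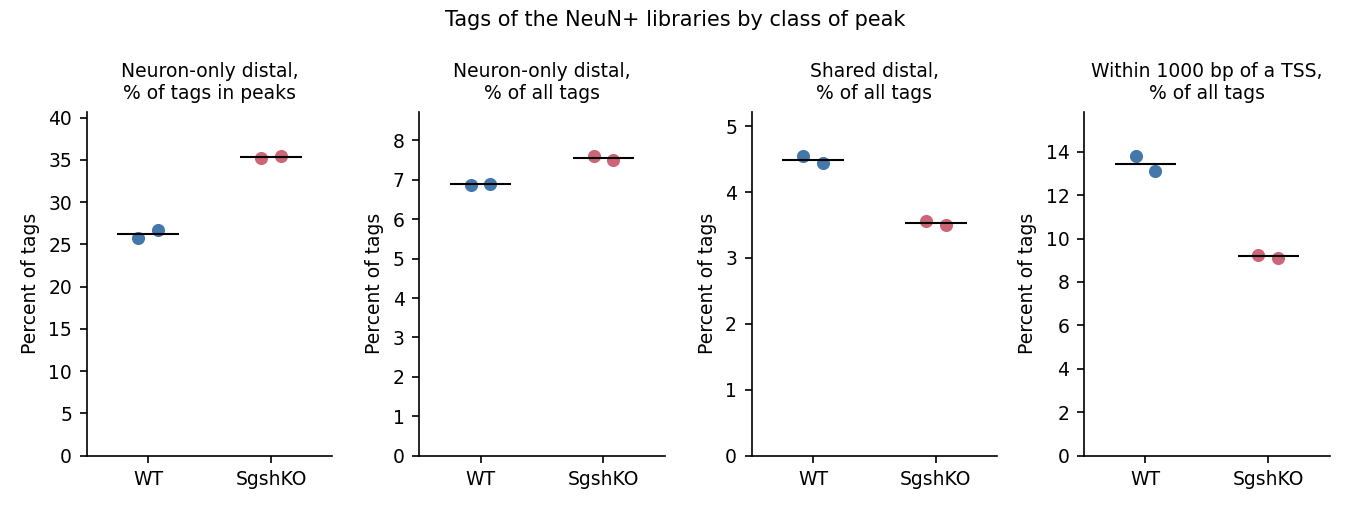
Percent of tags in each NeuN+ library (y axes, from 0) that lie in neuron-only distal peaks, as a share of in-peak tags and of all tags, in shared distal peaks and in peaks within 1000 bp of a TSS. Points are the 2 libraries of a genotype and lines their means: neuron-only distal peaks average 26.2% of in-peak tags in WT and 35.3% in SgshKO, and the classes on the right sit lower in SgshKO.

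Which single neuron-only distal peaks differed between genotypes was tested with limma over the whole NeuN+ table. Of them 13732 (25.5%) were called, 9595 higher (17.8%) and 4137 lower (7.69%) in SgshKO. Over all NeuN+ peaks 29.8% were called, 10.2% higher and 19.6% lower. The shared distal peaks had 3.50% higher and 20.4% lower. Neuron-only distal peaks made up 87.2% of all NeuN+ peaks called higher and 19.6% of those called lower. The peak list is merged over both genotypes, so a peak may be in it through 1 genotype alone. The part of this in the calls was not tested. No call survived by limma when either SgshKO library was left out, although 13907 (without replicate 1) and 13871 (without replicate 2) of these peaks had an unadjusted p under 0.05. In the same fits edgeR with a spread pooled over peaks called 11188 and 10275, an alternative chosen after seeing the data. Without WT replicate 1 or 2, limma called 4738 and 5834.

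The median log2 change of the neuron-only distal peaks was 0.09 (quartiles -0.39 and 0.62), against -0.33 for shared distal peaks, -0.53 for peaks within 1000 bp of a TSS and -0.23 for all NeuN+ peaks. Among the shared distal peaks the median was -0.23 with overlap of microglia peaks only, -0.27 with Olig2+ only and -0.46 with both. In each library the median log2 tags of neuron-only distal peaks minus that of shared ones was -0.44 and -0.44 in WT and -0.08 and -0.15 in SgshKO, so that the gap between the classes was narrower in both SgshKO libraries (exact permutation p = 0.333). Neuron-only peaks changed more upward than shared ones in 10 of 10 deciles of mean signal, by 0.32 to 0.61.

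The size of the medians depends on the scaling, while their signs and the order of the 3 classes were the same with the deposited totals, in-peak scaling and quantile normalization. Scaling to the tags in peaks in place of all tags raised the median of all NeuN+ peaks by 0.28, to 0.05, and that of the neuron-only distal peaks to 0.37, with 15512 called higher and 1474 lower. Over all NeuN+ peaks 26.5% were then called, 17.6% higher and 8.86% lower. All 9595 peaks called higher with the deposited totals were also called higher after that scaling, but 1474 (35.6%) of the 4137 called lower were called lower. The difference of medians between neuron-only and shared distal peaks was 0.42 with either scaling and 0.40 after quantile normalization.

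**Figure D3:**
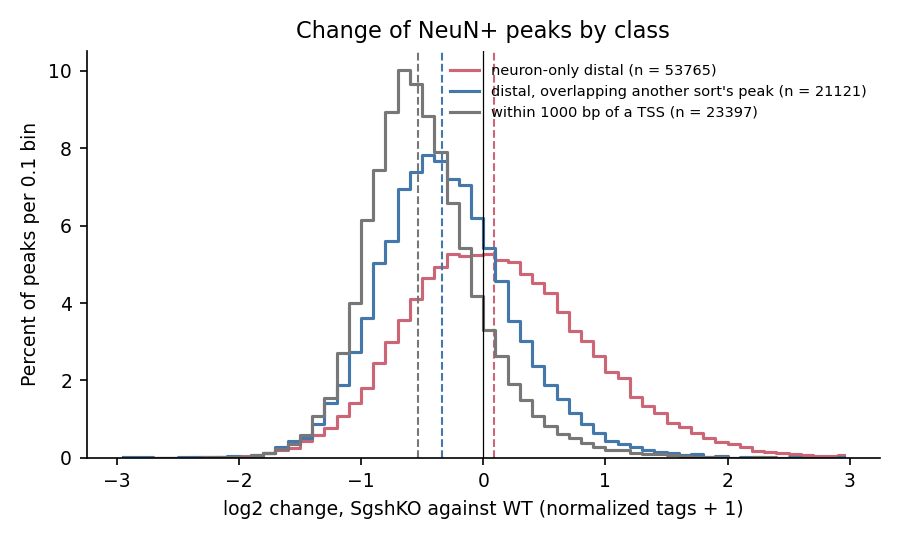
Distribution of the log2 change, SgshKO against WT (x axis), as the percent of peaks in bins of width 0.1 (y axis), for 3 classes of NeuN+ peaks, with dashed lines at the medians. The neuron-only distal peaks are centred at 0.09 with a long upper side, to the right of shared distal peaks (-0.33) and of peaks near a TSS (-0.53).

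Neuron-only distal peaks farther from a TSS had higher median changes. Between 1 and 5 kb (6535 peaks) 9.73% were called higher and 10.4% lower, with a median of -0.14. From 20 to 50 kb (13396 peaks) it was 15.7% and 8.03%, with a median of 0.06. From 100 to 500 kb (10652 peaks) it was 27.8% and 4.58% (0.36), and beyond 500 kb (907 peaks) 46.0% and 1.98% (0.77). In-peak scaling moved these medians to 0.14, 0.33, 0.64 and 1.04, in the same order. Shared distal peaks stayed between -0.37 and -0.23 across the same bins, with 21.2% called lower and 2.68% higher at 1 to 5 kb, 16.8% and 7.35% at 100 to 500 kb, and 11.4% and 9.09% of 44 peaks beyond 500 kb. Higher calls were thus also more frequent, and lower calls less, in the far bins of the shared distal peaks, and the difference between the classes in this was not tested. Intergenic neuron-only peaks were called higher more often (24.5%, median 0.28) than intronic ones (13.6%, median -0.03; 0.25 with in-peak scaling).

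**Figure D4:**
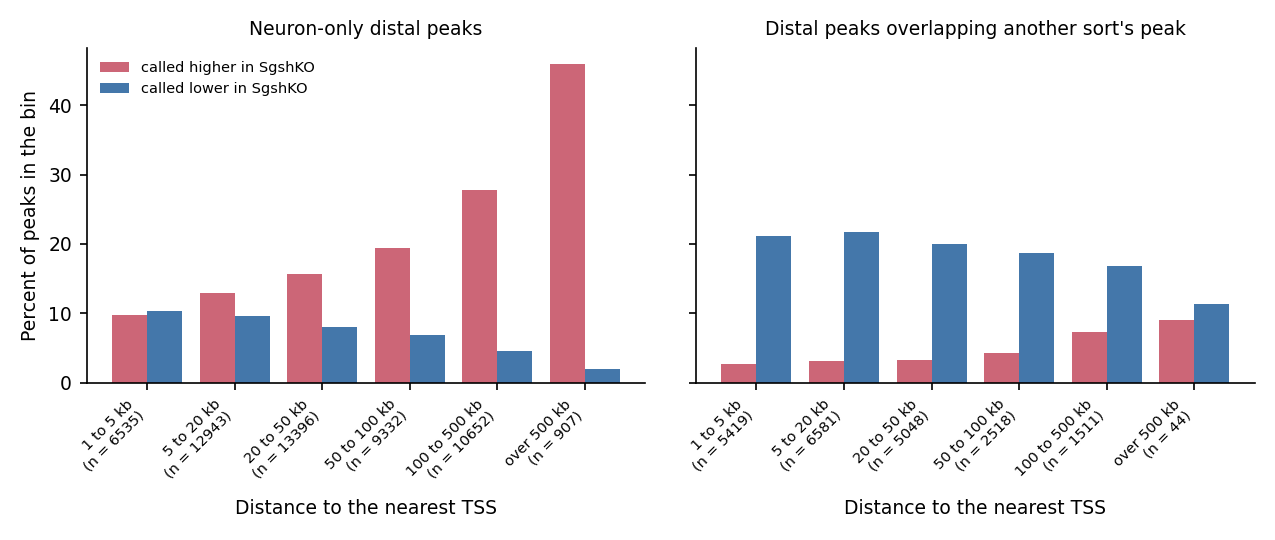
Percent of peaks called higher or lower in SgshKO (y axis) by distance to the nearest TSS (x axis, with the number of peaks), for neuron-only distal peaks on the left and shared distal peaks on the right. Higher calls make up 9.73% of the nearest bin and 46.0% of the farthest on the left, while lower calls are the more frequent in every bin on the right.

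Isolation in the genome went with the change as well. Neuron-only distal peaks within 1000 bp of a peak of another sort (8960) had a median of -0.12, and those over 100 kb from one (5348) a median of 0.56, with 37.1% called higher. Peaks with no other neuron-only distal peak within 50 kb (5212) had a median of 0.46, and those with 30 or more (1733, near 85 genes) one of -0.38. The latter grouping was chosen after the values were seen. On chromosome X, 485 peaks had a median of 0.44, with 143 called higher (29.5%) and 19 lower. On chromosome Y there were 6 peaks, 0 called higher and 3 lower, with a median of -0.95 and median tags of 14.1 in WT and 7.62 in SgshKO. The sex of the mice is not given. Over the 53269 peaks on autosomes 13565 were called (9451 higher, 4114 lower), with a median of 0.09, and the part of a difference in sex in these was not tested.

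The densest 100 kb windows show the lower end of this range. The first, on chromosome 6 (31066267 to 31166266), held 76 neuron-only distal peaks, 55 of them in introns of the long non-coding RNA gene Lncpint. Its summed tags came to 1054 and 1033 in WT against 629 and 648 in SgshKO, its median change was -0.69, and 23 peaks were called lower and 1 higher. The second, on chromosome 16 (34142896 to 34242895), held 70, all in introns of Kalrn, with sums of 987 and 1011 against 784 and 797 and a median of -0.44 (10 lower, 2 higher). The third, on chromosome 4 (152393092 to 152493091), held 64, of which 51 lie in introns of Kcnab2, a potassium channel subunit, with sums of 861 and 880 against 616 and 613 and a median of -0.55 (15 lower, 0 higher). With the deposited totals the sums were lower in both SgshKO libraries in all 3 windows, and they were not recomputed with in-peak scaling. The 84 peaks nearest Umps, all in introns of Kalrn, had a median of -0.43 with the deposited totals (5 higher, 12 lower). In-peak scaling put it at -0.16, with 8 higher and 3 lower, so the balance of calls turned there. Over the 80 intronic peaks of Lncpint the median stayed below 0 after in-peak scaling (-0.42).

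Annotated sequence classes differed. In the deposited annotation 289 neuron-only distal peaks were CpG islands, and 134 of them were called lower and 1 higher (median -0.70), against 64 lower and 2 higher with in-peak scaling (median -0.42). The 2169 peaks in LINE elements, remnants of retrotransposons, were called higher in 32.3% and lower in 4.01% (median 0.50). Peaks in DNA transposons (661) and LTR elements (2445) had medians of 0.42 and 0.27. The 395 in simple repeats had a median of -0.45 and the 209 in low-complexity sequence one of -0.37, and these stayed below 0 after in-peak scaling (-0.18 and -0.10). The 45215 peaks in neither a repeat nor an island had a median of 0.08. Shared distal peaks in CpG islands (1277) had a median of -0.65, close to that of the neuron-only ones, and those in LINE elements (308) one of -0.12. How reads that map to several copies of a repeat were treated is not given in the sources used here.

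Genes can be followed from their start site to their distal peaks. For 1052 nearest genes with at least 10 neuron-only distal peaks and a start-site peak (18542 distal peaks), the start-site peak had a median change of -0.68, with 672 called lower (of 1052) and 10 higher. Over all 23397 NeuN+ peaks within 1000 bp of a TSS 44.9% were called lower and 1.74% higher, and 23.5% and 4.87% with in-peak scaling. The median of the genes' distal medians was 0.02. In 945 genes (89.8%) the distal median was above the change at the start site, by 0.71 at the median gene. At Rbfox3 the start-site peak (chromosome 11, 118909575 to 118909819) fell from 30.5 ± 2.47 to 19.4 ± 3.18 tags (log2 change -0.64 ± 0.22, limma adjusted p = 0.039), and 99 of its 135 distal peaks had a higher value. At Lingo1 the start site (chromosome 9, 56796186 to 56796422) fell from 73.0 ± 7.84 to 36.2 ± 9.95 tags (-1.01 ± 0.19, adjusted p = 0.000743), with 69 of 76 distal peaks above it. At Ntm (chromosome 9, 29963056 to 29963280) it was 25.2 ± 5.25 and 23.2 ± 1.27 (-0.10 ± 0.23, adjusted p = 0.764), with 42 of 73 above.

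Among the 10 genes with most neuron-only distal peaks, the calls were mostly lower in SgshKO at Rbfox3 (3 higher, 20 lower, median -0.30), Lingo1 (1 and 15, -0.42), Kalrn (2 and 10, -0.39), Umps (5 and 12, -0.43), Celf2 (9 and 17, -0.31) and Atp2b2 (1 and 7, -0.31). They were mostly higher at Celf4 (12 and 5, 0.05), Ntm (10 and 6, 0.11) and Dclk1 (9 and 4, -0.07), and split at Phactr1 (10 and 12, -0.19). After in-peak scaling Rbfox3 had 13 higher and 2 lower, Umps 8 and 3, Celf2 15 and 5, and Phactr1 17 and 4, so their balance of calls turned. Their shares called higher were then 9.63%, 9.52%, 18.3% and 17.5%, each below the 28.9% of all neuron-only distal peaks. Lingo1 had 1 and 5, Kalrn 4 and 5 and Atp2b2 1 and 1. Minus the median of all neuron-only distal peaks, Rbfox3 was at -0.39 with the deposited totals and -0.40 with in-peak scaling, and Lingo1 at -0.51 and -0.52.

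Gene lists by role were followed next, by nearest gene. They hold 3765 of the neuron-only distal peaks, 724 called higher (19.2%) and 344 lower (9.14%), with a median of 0.08, beside 17.7%, 7.59% and 0.09 for the other 50000. No test of a list was made, and a list's values are to be read against the 17.8% higher, 7.69% lower and median of 0.09 of all neuron-only distal peaks. Values with in-peak scaling are to be read against 28.9% higher, 2.74% lower and a median of 0.37. In-peak scaling raised all 13 medians, so for the lists farthest from all neuron-only distal peaks the median is also given minus theirs. The single genes named within a list were chosen after their values were seen, and the peaks with coordinates by the rules given under the processing. Counts and medians of these single genes are given with the deposited totals only. Of the 4137 neuron-only distal peaks called lower, 1474 (35.6%) stayed so with in-peak scaling, so lower calls at single genes may not hold under it.

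Neuronal adhesion and axon guidance genes, which include contactins, cadherins, teneurins and receptors for guidance cues, had the most calls upward. Of their 758 peaks 247 (32.6%) were called higher and 30 (3.96%) lower, with a median of 0.51, or 0.42 above all neuron-only distal peaks (0.41 with in-peak scaling). They also lay far from gene starts, at a median of 207416 bp. Lrrc4c, a postsynaptic adhesion protein, had 19 of 31 peaks called higher and 0 lower (median 1.21), and Ptprd, a receptor phosphatase of presynaptic terminals, 19 of 42 and 0 (0.62). Csmd1 had 14 of 46 higher and 4 lower, and Opcml 4 of 43 and 0. The peak of the list with the smallest p lay 842802 bp from the TSS of Lrrtm4, a synapse-organizing protein (chromosome 6, 80862343 to 80862548). It had 3 and 2 reads in the WT libraries and 27 and 30 in the SgshKO libraries, or 1.70 and 1.13 against 18.9 and 19.1 tags (13.4-fold, exact 95% counting interval 5.42 to 42.8, limma adjusted p = 1.1e-05). The highest peak of the list, 514068 bp from the guidance receptor gene Epha7 (chromosome 4, 28298942 to 28299185), had 70.8 and 61.0 against 59.3 and 61.6 tags and was not called (-0.12 ± 0.15, and 0.18 with in-peak scaling, adjusted p = 0.562 with the deposited totals).

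Inhibitory neuron identity genes had 28 of 105 peaks (26.7%) called higher and 5 (4.76%) lower, a median of 0.32 and 0.23 above all neuron-only distal peaks. Maf, a transcription factor of interneurons, had 6 of 16 higher, and Npy, a neuropeptide gene, 5 of 11, with 0 lower at both. Near the neuropeptide gene Vip (chromosome 10, 5689780 to 5689983, in an LTR element) 3 and 1 reads in WT stood against 20 and 16 in SgshKO (10.6-fold, interval 3.79 to 40.9, limma adjusted p = 0.000164). Excitatory cortical identity genes had 23 of 191 peaks called higher and 23 lower (12.0% each), a median of -0.13 and -0.22 relative to all neuron-only distal peaks. With in-peak scaling 34 were called higher (17.8%) and 10 lower (5.24%), with a median of 0.16, beside 28.9% and 2.74% of all neuron-only distal peaks. Camk2a, the kinase of excitatory synapses, had 7 of 29 lower and 0 higher, and the layer factor Fezf2 4 of 21 lower and 2 higher. A peak in intron 1 of Camk2a, 5081 bp from the TSS (chromosome 18, 60930584 to 60930843), had 109 and 102 tags in WT and 41.9 and 43.2 in SgshKO, and fell by 1.29 ± 0.14 on the log2 scale (adjusted p = 6.69e-06). The highest peak of the list, also nearest Camk2a, had 117 and 116 against 85.9 and 81.3 tags (-0.48, adjusted p = 0.00726; not called with in-peak scaling, at -0.18, or after quantile normalization, at 0.06).

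Striatal projection neuron genes stood at the level of all neuron-only distal peaks, with 19 of 114 called higher, 9 lower and a median of 0.09. Rarb, a retinoic acid receptor, had 6 of 17 higher and 1 lower, and the phosphodiesterase gene Pde10a 5 of 38 in each direction. A peak 46949 bp upstream of Foxp1 (chromosome 6, 99567825 to 99568060) rose from 7.93 and 3.95 to 18.9 and 22.9 tags (1.71 ± 0.32, adjusted p = 0.000927).

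Receptors of the 2 fast transmitters were mixed by gene. Glutamate receptor genes had 62 of 303 peaks called higher (20.5%) and 34 lower (11.2%), with a median of -0.04. With in-peak scaling it was 87 higher (28.7%) and 13 lower (4.29%), with a median of 0.24, beside 28.9% and 2.74% of all neuron-only distal peaks. The NMDA receptor subunit gene Grin2a had 4 of 67 higher and 12 lower (median -0.25) and Grin2b 4 of 41 and 7 (-0.55). The metabotropic receptor gene Grm7 had 10 of 19 higher and 0 lower (0.97), and the AMPA receptor subunit gene Gria2 7 of 21 and 2 (0.52). A peak 256384 bp from the Gria2 TSS (chromosome 3, 80546284 to 80546619) rose from 3.97 and 4.52 to 26.5 and 24.8 tags (2.35 ± 0.29, adjusted p = 2.14e-05). GABA receptor genes had 25 of 147 higher (17.0%) and 7 lower (4.76%), with a median of 0.17. The subunit gene Gabra2 had 5 of 10 higher and 0 lower, while Gabbr2 had 1 of 63 higher and 5 lower (median -0.32). The share of Gabbr2 peaks called lower is near the 7.69% of all neuron-only distal peaks. Its share called higher is below their 17.8%. A peak 41086 bp upstream of Gabra2 (chromosome 5, 71136818 to 71137052) rose from 7.93 and 13.0 to 30.7 and 33.0 tags (1.56 ± 0.26, adjusted p = 0.000369).

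Calls at synaptic scaffold and release genes also varied by gene. Postsynaptic scaffold genes had 51 of 397 peaks higher and 52 lower, with a median of -0.14. With in-peak scaling it was 90 higher (22.7%) and 16 lower (4.03%), with a median of 0.13, beside 28.9% and 2.74% of all neuron-only distal peaks. Dlgap1 had 19 of 59 higher and 2 lower (0.53), whereas its relative Dlgap4 had 0 of 43 higher and 6 lower (-0.41) and Shank2 3 of 43 and 8 (-0.42). Presynaptic genes had 67 of 401 higher and 37 lower, with a median of 0.10. Nrxn3, a presynaptic adhesion protein, had 17 of 50 higher and 1 lower (0.56), and Syt7, a calcium sensor of vesicle release, 0 of 21 and 9 (-0.51).

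Sodium and calcium channel genes had 27 of 353 peaks called higher (7.65%) and 55 lower (15.6%), with a median of -0.24, or -0.33 relative to all neuron-only distal peaks. In-peak scaling gave 58 higher (16.4%) and 13 lower (3.68%) and a median of 0.04, beside 28.9% and 2.74% of all neuron-only distal peaks. The distance to the median of all neuron-only distal peaks stayed at -0.32. Scn8a, a sodium channel of the axon initial segment, had 9 of 30 lower (-0.64) and Cacna1a, the P/Q-type calcium channel, 10 of 35 (-0.52), with 0 higher at both. A peak in intron 1 of Cacna1b, the N-type channel (chromosome 2, 24761903 to 24762120), was both the highest and the one with the smallest p, and fell from 74.8 and 69.5 to 34.9 and 32.4 tags (-1.08 ± 0.16, adjusted p = 0.000135). Potassium channel genes had 89 of 580 higher (15.3%) and 55 lower (9.48%), with a median of -0.01. With in-peak scaling it was 139 higher (24.0%) and 22 lower (3.79%), with a median of 0.27. Kcnab2 had 13 of 42 lower (-0.61) and 0 higher. The peak nearest Kcnq3 is the Gm41340 sequence printed above.

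Immediate-early and activity-regulated genes had 32 of 165 peaks higher (19.4%) and 23 lower (13.9%), with a median of -0.14. With in-peak scaling it was 44 higher (26.7%) and 6 lower (3.64%) with a median of 0.14, beside 28.9% and 2.74% of all neuron-only distal peaks. Ier2 had 9 of 31 lower and 0 higher (-0.67), and Nptx2, a pentraxin of excitatory synapses, 6 of 9 higher and 1 lower (0.80). A peak in intron 8 of the prohormone convertase gene Pcsk1 (chromosome 13, 75114032 to 75114387) rose from 13.0 and 9.60 to 44.0 and 45.1 tags (1.90 ± 0.23, adjusted p = 1.69e-05). The highest peak of the list, in intron 1 of the neurotrophin gene Bdnf (chromosome 2, 109678021 to 109678305), had 116 and 106 against 97.7 and 83.2 tags and was not called (-0.30 ± 0.13, adjusted p = 0.0821, with 0.24 after quantile normalization).

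Lysosomal genes, the compartment of the Sgsh enzyme, had 114 neuron-only distal peaks near 39 of their 64 genes. Of these 23 were called higher (20.2%) and 9 lower (7.89%), with a median of 0.03, which is -0.06 from all neuron-only distal peaks. Galc, which encodes a galactosylceramide-degrading enzyme, held 13 of the 23 higher calls among its 23 peaks (median 1.14, 1 lower). A peak 34383 bp upstream of the sphingomyelinase gene Smpd1 (chromosome 7, 105519858 to 105520097) had 3 and 2 WT reads against 19 and 14 SgshKO reads (7.76-fold, interval 3.01 to 25.5, limma adjusted p = 0.000386). Genes that make or carry heparan sulfate, the substrate of the enzyme, had 34 of 179 peaks higher (19.0%) and 16 lower (8.94%), with a median of 0.16. Hs6st1, a sulfotransferase, had 6 of 20 higher and 1 lower, and the syndecan gene Sdc3 4 of 13 lower and 0 higher. A peak 63606 bp upstream of the sulfotransferase gene Ndst3 (chromosome 3, 123754294 to 123754622) rose from 9.63 and 11.3 to 39.1 and 33.0 tags (1.69 ± 0.24, adjusted p = 7.39e-05).

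Among the highest peaks of the other lists, 4 did not differ beyond the spread of the libraries. Those nearest Pde10a (87.8 and 74.5 against 76.1 and 90.2 tags), Gabrd (65.1 and 61.6 against 63.5 and 54.0), Galc (56.6 and 54.2 against 57.9 and 42.5) and Hs6st1 (63.4 and 62.1 against 56.5 and 62.2) were not called, and the genotypes overlapped at all 4. That nearest Grm2 (114 and 98.3 against 75.4 and 76.8 tags) fell by 0.47 on the log2 scale (limma adjusted p = 0.0115), and was not called with in-peak scaling (-0.18).

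**Figure D5:**
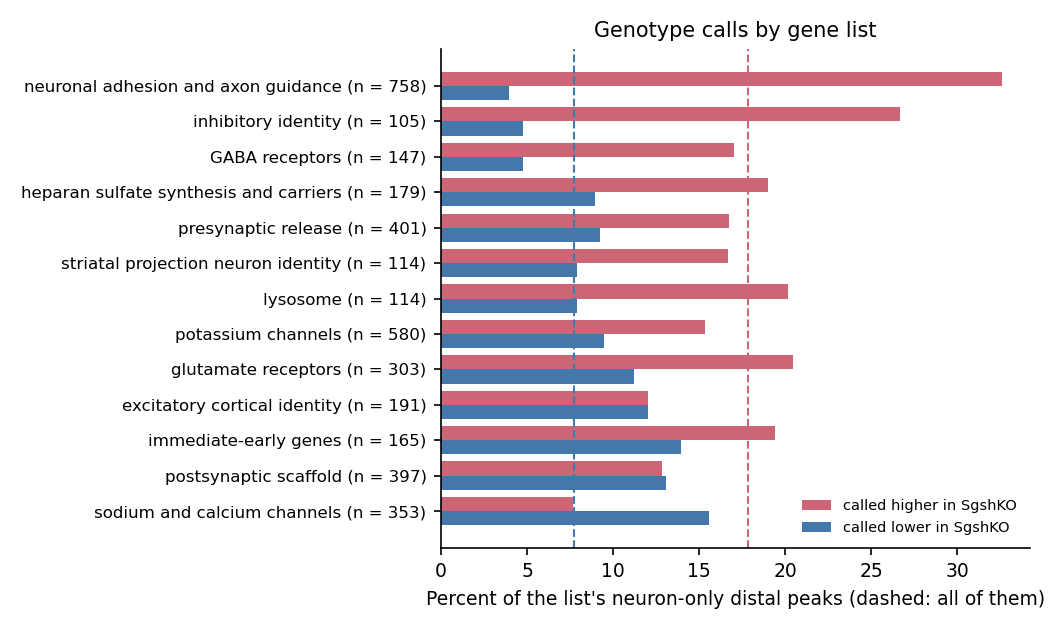
Percent of each list's neuron-only distal peaks called higher or lower in SgshKO (x axis), by list with its number of peaks (y axis), ordered by median change. Dashed lines mark the 17.8% higher and 7.69% lower of all neuron-only distal peaks, and adhesion and axon guidance genes reach 32.6% higher while sodium and calcium channel genes reach 15.6% lower.

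Among called neuron-only distal peaks with a mean at or above their median and no overlap between genotypes (4594 higher and 1805 lower), the largest increases were intergenic or in a predicted gene. The largest lay 3223 bp upstream of the odorant receptor gene Olfr344 (chromosome 2, 36565216 to 36565539), with 3 and 4 WT reads against 44 and 60 SgshKO reads (17.5-fold, interval 8.18 to 44.5; log2 change 3.57 ± 0.31, adjusted p = 9e-07). Those nearest Esp15 (chromosome 17, 39591644 to 39591844) and Sema6d, a semaphorin (chromosome 2, 123928115 to 123928444), are LINE elements and had 1.13 and 2.26 against 29.3 and 19.1 tags, and 1.70 and 1.13 against 19.5 and 22.9. Those nearest Tmem65 (chromosome 15, 58665571 to 58665774), Arhgap28 (chromosome 17, 68089220 to 68089483) and Gm10790 (chromosome 13, 41903283 to 41903496) had 6 or 7 reads over both WT libraries and 63 to 70 over the SgshKO libraries. Each of these 6 peaks had at most 2.82 tags in a WT library and between 17.5 and 38.1 tags in every SgshKO library. The NeuN+ peak list is merged over both genotypes, so peaks this low in WT may be in it through SgshKO alone. The same holds for the peaks near Lrrtm4, Vip and Smpd1. A rise at such peaks is then built into the choice of peaks, and its part in these sizes was not tested.

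The 3 largest decreases were all ribosomal RNA repeats. The peak nearest Sp3 (chromosome 2, 73012641 to 73012852) had 87.2 and 90.9 tags in WT and 10.5 and 10.8 tags in the SgshKO libraries (-2.95 ± 0.19, adjusted p = 4.85e-08). The peak nearest Hic2 (chromosome 16, 17222299 to 17222503) had 128 and 128 against 22.3 and 19.1 (-2.57 ± 0.16, adjusted p = 2.35e-08), and that nearest Aasdhppt (chromosome 9, 4260303 to 4260504) 33.4 and 23.2 against 5.58 and 6.98 (-1.99 ± 0.29, adjusted p = 8.19e-05). Reads in such copies can come from any copy of the repeat, so the place of these changes is uncertain. The next were intergenic peaks nearest Il1f9 (chromosome 2, 24182065 to 24182269; 25.5 and 16.9 against 6.28 and 3.81 tags), the co-repressor gene Tle4 (chromosome 19, 14957782 to 14957982; 17.6 and 20.9 against 3.49 and 6.35) and Fgf5 (chromosome 5, 98247640 to 98247841; 17.6 and 21.5 against 2.09 and 10.2), the last in a SINE element. Their adjusted p were 0.000427, 0.000599 and 0.00485, and the Fgf5 peak was no longer called without either WT replicate (0.0546 and 0.0844).

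The highest neuron-only distal peaks in WT were lower or level in SgshKO. In intron 1 of Palm, which encodes a membrane-associated phosphoprotein of neurons (chromosome 10, 79803742 to 79803981), 237 and 212 tags in WT stood against 133 and 107 (-0.91 ± 0.11, adjusted p = 2.02e-05). In intron 1 of Syt7 (chromosome 19, 10398366 to 10398593) it was 162 and 138 against 89.3 and 79.4 (-0.82 ± 0.12, adjusted p = 0.000114), and in intron 2 of Lingo1 (chromosome 9, 56686789 to 56687040, a LINE element) 160 and 154 against 89.3 and 111 (-0.65 ± 0.12, adjusted p = 0.000743). In intron 17 of the adhesion receptor gene Adgrb2 (chromosome 4, 130013182 to 130013498) and 17744 bp from Ubl4b (chromosome 3, 107537194 to 107537464) the changes were -0.52 ± 0.11 (adjusted p = 0.00205) and -0.47 ± 0.11 (adjusted p = 0.00418), which were not called with in-peak scaling (-0.23 and -0.17) or after quantile normalization (0.04 and 0.10). In intron 1 of the phosphatase gene Ptp4a3 (chromosome 15, 73745088 to 73745388) the levels were 156 and 154 against 158 and 156 tags, with a change of 0.02 ± 0.10 (adjusted p = 0.916), which in-peak scaling put at 0.31 and called (adjusted p = 0.0159). The peaks of Palm, Syt7 and Lingo1 were called with in-peak scaling but not after quantile normalization (-0.34, -0.27 and -0.08). Of the 6 highest peaks, all except that of Ptp4a3 were lower in both SgshKO libraries than in both WT libraries with the deposited totals.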

How the data were processed

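ATAC-seq was read from 3 deposited peak tables (microglia, NeuN+, Olig2+), each with 4 libraries. Reads were processed with Bowtie2 and HOMER on mm10, per the submitters' processing notes, which give no versions. Values are signal, tags per peak that the authors scaled to 10000000 per library, per the file headers. All values came back as whole reads within 0.01. The Peak Score is the authors' score (540 to 1000) among the deposited columns. Per the peak names, each sort has 1 merged list over both genotypes, so a peak may come from 1 genotype. Which library ran on which sequencer is not given.

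Peaks were compared with limma 3.58.1 (R 4.3.3) on log2(tags + 1), two-sided, with a mean-variance trend, over all NeuN+ peaks and with Benjamini-Hochberg adjustment, called under 0.05. Alternatives were other pseudocounts, filters and scalings, a replicate block, leaving out each library, and count tests on the whole reads (DESeq2 1.42.0, edgeR 4.0.16). The limma step was tested on simulated data. Single values were compared by exact permutation. Peaks named with coordinates are, first, the 6 largest increases and decreases among called, non-overlapping peaks at or above the median mean. The 6 highest in WT follow, each of these groups with at most 1 per nearest gene. Then come the smallest p and highest WT mean per list, and the highest WT mean per top gene. The start sites of top genes and the 3 densest windows are the last. The rule for the printed sequences was set after the reference tables were seen. The members and gene lists were chosen with earlier results of these data known. Results at a few genes are not reported here.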

Additional observations from a re-analysis of the deposited data

How the results depend on the processing

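The difference of 9.14 percentage points in the share of in-peak tags kept its direction when each library was left out, where no p was computed, and in the subsets of peaks tried. It was not recomputed by edgeR or DESeq2, and a library's scaling leaves this share unchanged. The difference of medians between neuron-only and shared distal peaks (0.42) moved most with a pseudocount of 5 (0.32) and with Peak Score 1000 only (0.52). The median log2 change of neuron-only distal peaks (0.09) was 0.37 with in-peak scaling, 0.29 with median-of-ratios scaling, 0.19 after quantile normalization, 0.31 by edgeR and 0.31 by DESeq2. It was 0.14 for Peak Score 1000, 0.14 with no other peak within 1000 bp, and 0.15 over 10000 bp from a TSS. These scalings shift the median of all NeuN+ peaks by 0.28, 0.20, 0.15 and, for edgeR, 0.21.

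Of the 13732 calls (9595 higher, 4137 lower; 69.9% higher), 8932 (6381 and 2551) were made without the lowest 25% of peaks, where fewer peaks are tested. DESeq2 called 2386 (2357 and 29, 98.8% higher), an adjusted p under 0.01 gave 5916 (4797 and 1119), and Peak Score 1000 only 7444 (5350 and 2094). In-peak scaling gave 15512 higher and 1474 lower (91.3% higher), and the lower calls were 1896 with median-of-ratios scaling (87.7% higher), 1357 after quantile normalization (86.0%) and 1928 by edgeR (88.1%). Leaving out 1 library gave 0 to 5834 calls by limma, 0 to 5207 higher and 0 to 627 lower. By limma 0 were called without SgshKO replicate 1 or 2 (smallest adjusted p 0.126 and 0.129), where 13907 and 13871 had an unadjusted p under 0.05. There edgeR, chosen after seeing the data, called 11188 (1003 lower) and 10275 (929 lower) with a spread pooled fully over peaks. Calls in the gene lists (1068) were 0 to 473 with 1 library left out, 216 by DESeq2, 503 at 0.01 and 615 at Peak Score 1000. The contrast of peaks over 100 kb with those up to 5 kb from a TSS (0.53) was 0.40 with a pseudocount of 5 and 0.42 without the lowest peaks. The start-site contrast (0.71) was 0.63 with a pseudocount of 5, 0.48 after quantile normalization and 0.66 to 0.74 with 1 library left out (0.66 without WT replicate 1). The cause was not tested.

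The replicate block gave 15393 calls. Same-numbered libraries had deviations with a correlation of 0.0036, and libraries with crossed numbers had -0.0036. With 2 libraries in each genotype these values mirror each other by construction. They therefore cannot show whether the numbers pair the libraries, and with 2 pairs no further check was made.

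Named peaks with small changes turned direction under some settings. For Atp2b2, Celf4, Dclk1, Kalrn, Rbfox3 and Umps the peak is the neuron-only distal peak highest in WT, not the start site. These start at 113856852, 25694183, 55476796, 34469509, 118792563 and 34172871, with changes of -0.15, 0.03, -0.25, -0.07, -0.42 and -0.24 with the deposited totals. The Camk2a peak is the highest of the excitatory list (start 60918967), not the one in intron 1. With in-peak scaling the log2 change was 0.14 at Atp2b2, 0.045 at Dclk1, 0.18 at Epha7, 0.18 at Gabrd, 0.14 at Galc, 0.21 at Hs6st1, 0.22 at Kalrn and 0.059 at Umps. With median-of-ratios scaling the log2 change was 0.064 at Atp2b2, 0.095 at Epha7, 0.10 at Gabrd, 0.057 at Galc, 0.13 at Hs6st1 and 0.14 at Kalrn. After quantile normalization the log2 change was 0.045 at Adgrb2, 0.17 at Atp2b2, 0.24 at Bdnf, 0.060 at Camk2a, 0.14 at Dclk1, 0.33 at Epha7, 0.32 at Gabrd, 0.23 at Galc, 0.052 at Grm2, 0.35 at Hs6st1, 0.41 at Kalrn, 0.014 at Rbfox3, 0.10 at Ubl4b and 0.22 at Umps. By edgeR the log2 change was 0.081 at Atp2b2, 0.097 at Epha7, 0.11 at Gabrd, 0.068 at Galc, 0.14 at Hs6st1 and 0.15 at Kalrn. By DESeq2 the log2 change was 0.085 at Atp2b2, 0.094 at Epha7, 0.11 at Gabrd, 0.070 at Galc, 0.14 at Hs6st1 and 0.15 at Kalrn. With 1 library left out it ran from -0.42 to 0.13 at Atp2b2, -0.15 to 0.20 at Celf4, -0.23 to 0.0044 at Gabrd, -0.37 to 0.063 at Galc and -0.088 to 0.15 at Pde10a.

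Depth limits single peaks: the median neuron-only distal peak holds 16 to 18 reads in a library.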
